A study of Mus musculus with 6 samples.

Results

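The insulin-like growth factor (IGF) system was examined in mouse myotubes after knockdown of H19, a long non-coding RNA that is transcribed from the same imprinted region as the growth factor gene Igf2. The members were chosen by name, as every feature of the deposited RNA-seq table with a gene symbol that begins with Igf, or with Irs followed by a digit. This gave 6 of the 3019 listed features, namely Igf2, Igf1r, Igf2r, Igfbp3, Igf2bp2 and Igfn1. The first 5 belong to the IGF system as ligand, receptors, binding protein and mRNA-binding protein. Igfn1 matched by its name only, since it encodes a muscle protein with immunoglobulin-like and fibronectin domains and is not a ligand, receptor or binding protein of the system. In the GENCODE annotation, 23 protein-coding genes have a symbol of this form, so 17 of them are not listed. These include Igf1, Igfbp2, Igfbp5, Igf2bp1, Irs1 and Irs2, for which no value was analysed here.

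The cells were C3H myotubes, multinucleated muscle cells that were grown from a mouse myoblast line by serum reduction. They were transfected with a negative control siRNA (siCon) or with 1 siRNA against H19 (siH19) at 40 h of differentiation, and total RNA was taken 48 h later, with 3 libraries in each group. Both groups passed through the same transfection, and no untransfected cells are among the samples. The deposited table holds 1 value for each feature and group, an estimate over the 3 libraries together, on the scale of log2 FPKM (fragments counted per kilobase of transcript length and normalised for library size). The spread between libraries and the depth of each library are therefore unknown, no error or test could be computed, and each difference below, siH19 minus siCon on the log2 scale, describes these pooled values.

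In this system IGF1 and IGF2 are secreted peptides that signal through the type 1 receptor IGF1R, a tyrosine kinase that activates the PI3K-AKT and RAS-ERK pathways. IGF2R, the mannose 6-phosphate receptor, binds IGF2 at the cell surface and carries it to lysosomes without such a kinase signal. IGF binding proteins hold the peptides outside the cell, and the IGF2BP proteins bind mRNAs, that of Igf2 among them. In differentiating myoblasts IGF2 is an autocrine factor that promotes fusion and muscle gene expression.

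All 3019 listed features are marked as significant calls, and the smallest difference among them is 0.31 in absolute value. The listing of the members thus rests on the same comparison as the differences given here, so their differences from 0 are not independent evidence. The share of all measured genes that is listed is unknown, since the table holds called features only. H19, the target of the siRNA, has 11.20 log2 FPKM in siCon and 7.50 in siH19, which is 7.69% of the siCon level. Of the 12 skeletal muscle marker genes looked up, 9 are listed, in 8 features, and all 8 features are higher in siH19, beside 62.8% of all listed features, with differences from 0.49 to 1.43. By at least 1.5-fold, 5 of the 8 are higher, beside 37.4% of all listed features. When the differences are lowered by 0.41, the median difference of the listed features with a symbol, 2 are, beside 16.9%. Their summed level is 5930 FPKM in siCon and 9290 FPKM in siH19. Myog, a transcription factor of muscle differentiation, has 7.79 log2 FPKM in siCon and 9.22 in siH19. Of markers of other cells, 1 of 6 fibroblast genes (Col1a1, difference 0.41), 1 of 5 myoblast and proliferation genes (Myf5, difference -0.38) and none of 4 adipocyte genes is listed. The part of these muscle and other marker levels in the values of the 6 members was not tested. In such bulk RNA, fewer cells of a type and less RNA per cell cannot be told apart.

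The ligand Igf2 was higher in siH19, whereas the IGF2 clearance receptor Igf2r, the binding protein Igfbp3 and the mRNA-binding protein Igf2bp2 were lower. The type 1 receptor Igf1r was higher by a margin that reverses when all differences are recentred, as described for it. With a minimum of 1.5-fold between the pooled values, 2 members are higher (Igf2 and Igfn1) and 2 are lower (Igf2r and Igfbp3). Over all listed features, 37.4% are higher and 16.9% lower by the same rule. By at least 2-fold, 1 member is higher (Igfn1) and none is lower, beside 16.9% higher and 6.09% lower of all listed features. Without a minimum, 3 members are higher and 3 lower, beside 62.8% higher and 37.2% lower of all listed features, and their median difference is -0.02, beside 0.45 for all listed features. The median over the 2549 listed features with a symbol is 0.41. If each difference is lowered by this value, 1 member stays higher and 3 are lower by at least 1.5-fold, beside 16.9% higher and 37.2% lower of all listed features. Every feature that is lower as deposited passes the minimum once 0.41 is subtracted, since none is closer to 0 than 0.31. Without a minimum, 2 recentred members are higher and 4 lower, beside 53.7% higher and 45.1% lower of all listed features. This median is that of called features alone, so it is no estimate of a shift over all genes. With 6 members these counts are a description.

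**Figure D1:**
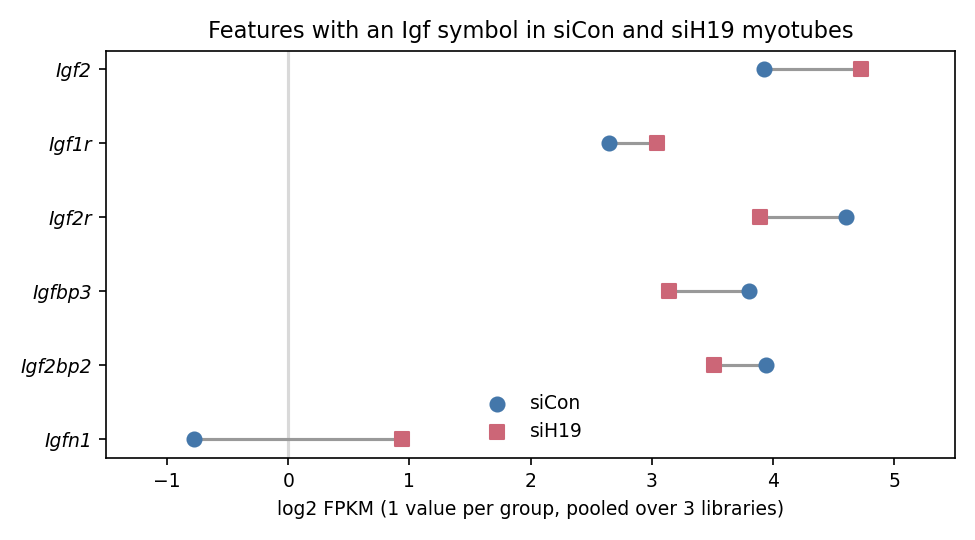
Pooled level of each of the 6 features with an Igf symbol in siCon (circles) and siH19 (squares), in log2 FPKM, with 1 value per group over 3 libraries and so no error bar; the grey line joins the values of a gene. Igf2, Igf1r and Igfn1 lie further right in siH19, and Igf2r, Igfbp3 and Igf2bp2 further left; the Igf1r difference of 0.39 becomes -0.02 when the median of 0.41 is subtracted.

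Igf2, the ligand, has 3.93 log2 FPKM in siCon and 4.73 in siH19. On the linear scale these are 15.2 and 26.5 FPKM, a 1.74-fold higher level in siH19. Among the 1896 features that are higher in siH19, 732 differ by at least as much, so the size of the Igf2 difference of 0.80 is not unusual in the table. Less the median of 0.41, it is 0.39, which is below the minimum of 1.5-fold. The gene (ENSMUSG00000048583.16) is protein coding and covers 142650766 to 142666816 of chromosome 7 (minus strand) in GRCm38, the assembly also called mm10. The locus of the deposited feature, XLOC_026028, runs from 142650768 to 142670356, which is 3.54 kb past the annotated start of transcription. It also covers the whole of Mir483, of the antisense transcript Igf2os, whose annotated end it shares, and of Gm49394, a protein-coding gene model on the strand of Igf2. Whether the loci of the table mark a feature's own extent or a wider assembled bundle of transcripts is not given in the sources used here, so overlaps and distances taken from them describe the loci only. Nor is it given how reads were divided among the overlapping models. RefSeq gives 4 starts of transcription for Igf2, and the single feature value does not separate their transcripts.

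The receptors differed in opposite directions as deposited. When recentred, Igf2r stayed lower, while Igf1r, at -0.02, showed almost no difference. Igf1r has 2.65 log2 FPKM in siCon and 3.04 in siH19, or 6.28 and 8.22 FPKM, and its difference of 0.39 (1.31-fold) reverses to -0.02 when the median of the listed features with a symbol is subtracted. It is one of the smaller differences in the table, since 1717 of the 1896 higher features differ by at least as much. Its gene (ENSMUSG00000005533.10) covers 67952827 to 68233668 of chromosome 7 (plus strand), and no other annotated gene overlaps its locus. Igf2r has 4.60 log2 FPKM in siCon and 3.89 in siH19, or 24.3 and 14.8 FPKM. This difference of -0.71 leaves 61.1% of the siCon level, and 376 of the 1123 lower features differ by at least as much. Recentred on the median, it is -1.12.

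The locus given for the Igf2r feature reaches past the gene. The gene (ENSMUSG00000023830.14) covers 12682406 to 12769664 of chromosome 17 (minus strand), while the locus of its feature runs to 12868143, 98.5 kb further. This stretch takes in Mas1 on the same strand, whose annotated end is also at 12868143, and the locus as a whole holds all of Airn (12741311 to 12860136, plus strand), the imprinted antisense RNA of Igf2r. The deposited symbol is Igf2r alone, and neither Airn nor Mas1 is listed as a feature. The library kit keeps strand, but whether the counting used it is not given in the sources used here, so a contribution of Airn reads to the Igf2r value cannot be told apart.

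The binding protein Igfbp3 and the mRNA-binding protein Igf2bp2 were lower in siH19. Igfbp3, the main carrier of IGFs in the circulation, has 3.80 log2 FPKM in siCon and 3.14 in siH19, or 13.9 and 8.82 FPKM. The difference of -0.66 leaves 63.3% of the siCon level and becomes -1.07 when recentred. Its gene (ENSMUSG00000020427.11) occupies 7206086 to 7213923 of chromosome 11 (minus strand). Igf2bp2, which encodes an mRNA-binding protein, has 3.94 log2 FPKM in siCon and 3.51 in siH19, or 15.3 and 11.4 FPKM. Its difference of -0.43 is below 1.5-fold and leaves 74.2% of the siCon level, with 859 of the 1123 lower features at least as far from 0. Recentred, it is -0.84 and passes 1.5-fold. Its gene (ENSMUSG00000033581.17, chromosome 16, 22059009 to 22163299, minus strand) matches the locus of the feature at both ends.

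Igfn1 has the largest difference of the 6 members and the lowest level. It has -0.78 log2 FPKM in siCon and 0.94 in siH19, or 0.582 and 1.92 FPKM, a 3.29-fold higher level in siH19. Only 12.5% of the listed features have a lower siCon value, and the number of fragments behind it is unknown. With 1 FPKM added to both values before the logarithm, its difference of 1.72 shrinks to 0.88, whereas that of Igf2 moves from 0.80 to 0.76. The gene (ENSMUSG00000051985.12) covers 135953578 to 136006342 of chromosome 1 (minus strand).

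**Figure D2:**
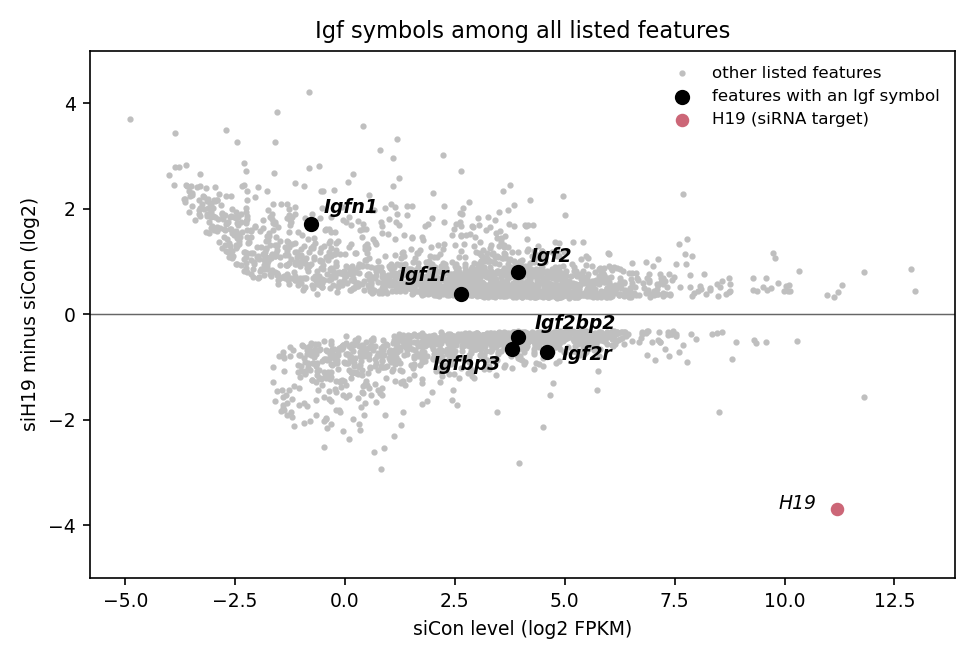
Difference between the groups (siH19 minus siCon, log2) against the siCon level (log2 FPKM) for all listed features, with the 6 features with an Igf symbol in black and H19, the siRNA target, in red; 4 features at the floor of the table or beyond the axis limits are not drawn. No listed feature lies closer to 0 than 0.31, and the 6 lie on both sides of the empty band, with Igf1r at its edge and on the other side of 0 once the median of 0.41 is subtracted.

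Because FPKM divides by transcript length, levels can be set side by side within a group. In siCon the order from high to low is Igf2r, Igf2bp2, Igf2, Igfbp3, Igf1r and Igfn1. In siH19 Igf2 leads, followed by Igf2r, Igf2bp2, Igfbp3, Igf1r and Igfn1. In siCon, Igf2, Igf2bp2 and Igfbp3 lie between 3.80 and 3.94 log2 FPKM, close enough that their order carries no weight without replicate values. The ratio of Igf2 to Igf2r FPKM is 0.629 in siCon and 1.79 in siH19, a difference of 1.51 on the log2 scale. Since this ratio is taken within each group, a shift common to all features of a group does not alter it. It follows from the called differences of 0.80 for Igf2 and -0.71 for Igf2r, so it is not independent evidence. The ratio of Igf2 to Igfbp3 FPKM is 1.09 in siCon and 3.01 in siH19. That of Igf2 to Igf1r FPKM is 2.43 in siCon and 3.23 in siH19, a smaller difference of 0.41 on the log2 scale. The ratio of Igf1r to Igf2r FPKM is 0.259 in siCon and 0.555 in siH19. Igf2r and Igfbp3, both lower in siH19, keep a ratio of 1.74 in siCon and 1.68 in siH19. The error of these ratios is unknown for the same reason as that of the levels.

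H19 lies in the same imprinted region of chromosome 7 as Igf2. There, 8 other listed features lie within 500 kb of the Igf2 locus, of which 7 are higher and 1, H19 itself, is lower in siH19, beside 62.8% higher and 37.2% lower of all listed features. By at least 1.5-fold, 4 of the 8 are higher, beside 37.4% of all listed features. The feature next to Igf2 is Ins2, the mouse insulin 2 gene, 8.30 kb away, with 1.13 log2 FPKM in siCon and 2.25 in siH19 (2.17-fold). The locus given for Ins2 extends over 21021 bp. A locus with no gene symbol, XLOC_026031 (142710528 to 142711402), lies 40.2 kb from Igf2, inside the annotated extent of Ins2 (142678656 to 142743381). Its level is low, with -2.47 log2 FPKM in siCon and -0.52 in siH19. On the other side, H19 is 72.6 kb away, and Nctc1, the long non-coding RNA gene that contains the muscle enhancer of the locus, is 91.9 kb away with a difference of 1.15. Nctc1 has a low level, with -0.23 log2 FPKM in siCon and 0.92 in siH19. With 1 FPKM added to both values, the difference of Nctc1 is 0.64 and that of Ins2 is 0.85. Further out, the muscle genes Tnnt3 and the joint feature of Syt8 and Tnni2 have differences of 0.53 and 0.49, Ifitm10 one of 0.63 and Kcnq1ot1, an imprinted antisense RNA, one of 0.39. The Kcnq1ot1 difference is -0.02 when recentred. Around Igf2r, also imprinted, 3 features are listed within 500 kb, 4732491K20Rik with a difference of 0.68 and the unnamed XLOC_011934 and XLOC_011935 with 1.81 and 0.89. All 3 are higher in siH19, as are 62.8% of all listed features, whereas Igf2r is lower. This share mixes features with and without a symbol, since 1533 of the 2549 with a symbol are higher, beside 1896 of all 3019. The level of XLOC_011934 is low, at -1.67 log2 FPKM in siCon.

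**Figure D3:**
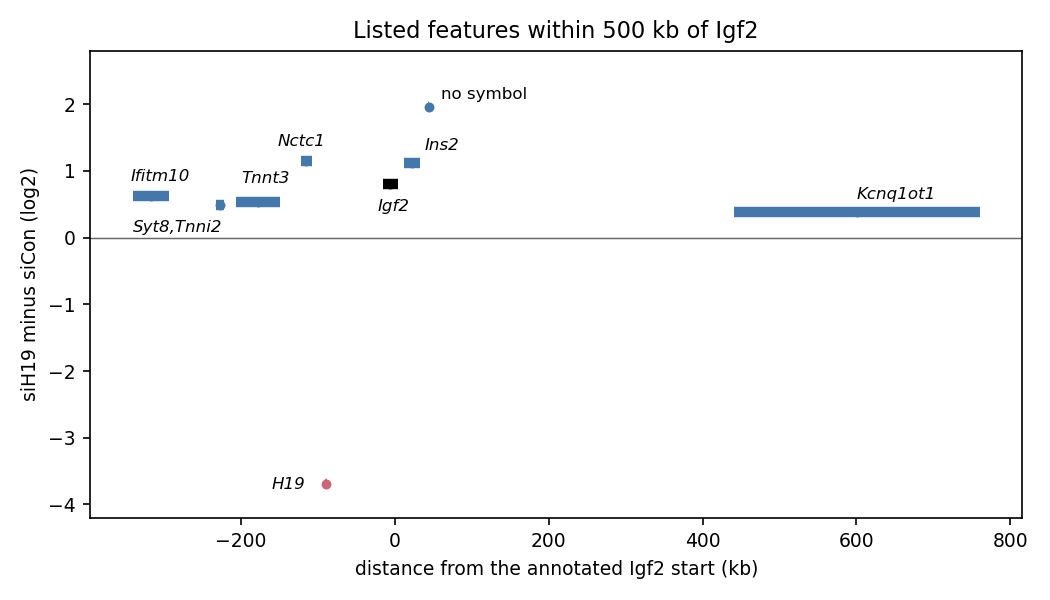
Difference between the groups (siH19 minus siCon, log2, 1 pooled value per group) of Igf2 (black) and the 8 listed features within 500 kb of its locus, drawn as bars over the extent of their deposited loci against the distance from the annotated Igf2 start in kb, with higher features in blue and H19 in red. Igf2 at 0.80, Ins2 at 1.12 and Nctc1 at 1.15 are above 0 and H19 at -3.70 far below, while Kcnq1ot1 at 0.39 passes to -0.02 when the median of 0.41 is subtracted.

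H19 is known to bind let-7 microRNAs, which pair with mRNAs through their seed, bases 2 to 8. The seed and its matches in the member mRNAs are therefore shown as sequence context, with no microRNA measured in these libraries. RefSeq lists 10 mature let-7 sequences from the 5′ arm or without an arm name, and 9 of them share the seed of let-7a. Its sequence is given with the seed in capitals.

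let-7a-5p: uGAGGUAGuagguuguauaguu

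A match to this seed reads CTACCTC in the mRNA. It was searched on the transcript strand only, in the 3′ UTR of the longest protein-coding GENCODE transcript of each gene. It occurs in 297 of 2411 3′ UTRs of listed genes (12.3%) and in 8.85% of the 20964 of all protein-coding genes. Of the 6 members, 3 hold it, Igf1r with 2 matches and Igf2r and Igf2bp2 with 1 each. The 3′ UTRs of these genes differ in length, with 7267 bases in Igf1r, 1304 in Igf2r and 1784 in Igf2bp2, and a long one has more room for a match. The letters are not in the 3′ UTRs of Igf2 (3047 bases), Igfbp3 (1435 bases) or Igfn1 (439 bases). Each match is printed with its surroundings, with the letters that pair with the seed in capitals.

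Igf1r, chr7:68229113-68229142, plus strand, 3′ UTR: tcaaacatttatCTACCTCactcttgtttt

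Igf1r, chr7:68233219-68233248, plus strand, 3′ UTR: gccagagttcatCTACCTCtgggatttaaa

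Igf2r, chr17:12683026-12683055, minus strand, 3′ UTR: ctgctccgtgccCTACCTCatctctgtagt

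Igf2bp2, chr16:22059463-22059492, minus strand, 3′ UTR: cacaaataaaagCTACCTCaggtgtttttt

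As deposited, the differences of the 3 members with a match are 0.39 (Igf1r), -0.71 (Igf2r) and -0.43 (Igf2bp2). Recentred, they are -0.02, -1.12 and -0.84. A part of let-7 in these values was not tested. Among listed genes with a feature of their own, the match is in 12.2% of the 1378 3′ UTRs of those higher and 12.4% of the 910 of those lower in siH19. The 3′ UTRs of the higher genes are longer, with a median of 1680 bases against 1030, so that matches per kilobase are 0.0667 in the higher and 0.0977 in the lower genes. The strict match is not in the longest annotated H19 transcript (2286 bases), which says only that these letters are not in it.

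The other genes of the IGF and insulin pathway were looked up in a list of 101 genes, besides 8 imprinted neighbours such as H19 and Nctc1, and 27 of the 101 are listed. Of these, 7 are higher and 1, Grb14, is lower in siH19 by at least 1.5-fold, beside 37.4% and 16.9% of all listed features. Without a minimum, 21 of these 27 are higher and 6 lower, with a median difference of 0.49, close to the 0.45 of all listed features. When the differences are recentred, the balance by 1.5-fold reverses to 1 higher and 6 lower, beside 16.9% and 37.2% of all listed features, while without a minimum 18 are higher, 8 lower and 1 at 0, beside 53.7% higher and 45.1% lower of all.

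At the receptor, 3 of the 4 listed adaptors and regulators are higher and 1 is lower, beside 62.8% and 37.2% of all listed features, and recentred 2 are higher, 1 lower and 1 at 0, beside 53.7% and 45.1% higher and lower of all. Grb14, an adaptor that inhibits the insulin receptor, has 0.16 log2 FPKM in siCon and -0.96 in siH19, 2.17-fold lower. With 1 FPKM added to both values, its difference of -1.12 shrinks to -0.48, below 1.5-fold. Sos1, an exchange factor that activates RAS, and Ptpn11, the phosphatase SHP2, differ by 0.50 and 0.49. Irs1, Irs2, Insr and Grb10 are not listed. Of the binding protein regulators, Stc2, an inhibitor of the protease that cleaves IGF binding proteins, differs by 0.54.

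The PI3K and AKT branch has 9 of 32 genes listed, and all 9 are higher in siH19, beside 62.8% of all listed features. Their differences run from 0.34 to 0.65, and when they are recentred 7 genes stay higher, beside 53.7% of all listed features, and 2, Akt2 and Phlpp1, turn lower. By at least 1.5-fold, 2 of the 9 are higher as deposited and 0 when recentred, beside 37.4% and 16.9% of all listed features. Pik3cb, a catalytic subunit of PI3K, has 2.49 log2 FPKM in siCon and 3.14 in siH19. Eif4ebp2, a repressor of cap-dependent translation, has 3.38 and 4.02 log2 FPKM. Activators and inhibitors are both among the 9, since Pdpk1, Akt2, Rptor and Rps6kb1 promote signalling while the phosphatases Phlpp1 and Phlpp2 and the mTOR inhibitor Deptor restrain it. Pdpk1 shares its feature with Kctd5. Akt1, Mtor and Tsc2 are not listed.

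In the RAS and ERK branch, Mapk3, the kinase ERK1, has a difference of 0.60 and Nras one of -0.38. Of the 7 listed FOXO factors and targets, 4 are higher and 3 lower, close to the 62.8% and 37.2% of all listed features. Foxo6 has 2.57 log2 FPKM in siCon and 3.44 in siH19, and Cited2, Pdk4 and Foxo1 differ by 0.52, 0.51 and 0.48. Trim63, the muscle ubiquitin ligase MuRF1, has a difference of -0.51, and Sesn3 and Ddit4, which restrain mTOR signalling, have differences of -0.49 and -0.45. Tbc1d1, a regulator of glucose transporter traffic, is higher by 0.67. M6pr, the smaller mannose 6-phosphate receptor that shares lysosomal enzyme sorting with IGF2R, is lower, with 6.30 log2 FPKM in siCon and 5.97 in siH19. The cytokine gene Lif is higher by 0.78.

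**Figure D4:**
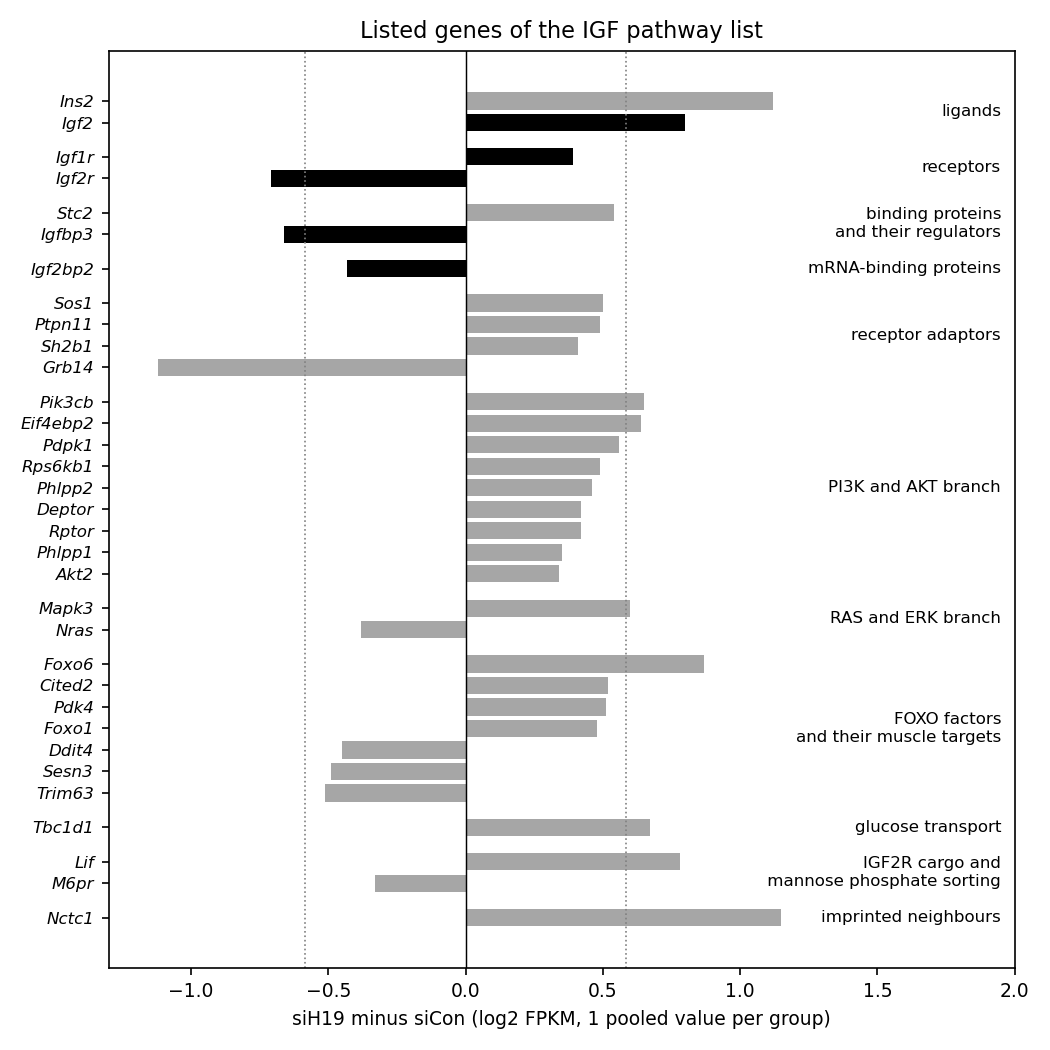
Difference between the groups (siH19 minus siCon on the log2 FPKM scale, 1 pooled value per group) of the listed genes of the IGF pathway list and of Nctc1, an imprinted neighbour, by role, with members of the IGF family in black, other genes in grey and dotted lines at 1.5-fold; H19 at -3.70 is left out. All 9 listed genes of the PI3K and AKT branch lie right of 0, where Akt2 and Phlpp1 pass to the left when the median of 0.41 is subtracted, as do Igf1r and, to 0, Sh2b1.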

How the data were processed

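RNA-seq libraries of rRNA-depleted total RNA (stranded kit, paired ends) came from triplicate siCon and siH19 transfections, grouped here by sample title. Per the paper's methods and the submitters' processing notes, TopHat (app 1.0.0, TopHat2 2.0.7) placed the reads on mm10, and Cufflinks and Cuffdiff 2.1.1 assembled and compared transcripts. The authors deposited log2 FPKM values, 1 for each group and feature, rounded to 2 decimals, so a difference can be off by 0.01. Their table also holds their own fold changes and q values, which were not used. Without counts or library values there are no depths, intervals or tests.

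Differences were computed as siH19 minus siCon. The members and gene lists were chosen with earlier results of these data known. Named are all members, H19, listed pathway genes differing by at least 1.5-fold with up to 2 further examples a group (the largest differences), and features within 500 kb of Igf2 and Igf2r. Any other gene in the text was chosen after the table had been seen. Likeness of pattern between genes was not computed, since each gene has only 2 values. Alternatives were a 2-fold or no minimum, a filter at log2 FPKM 0, recentring, log2(FPKM + 1), and leaving out Igfn1. Feature starts are counted from 0 in the table (484 of 2328 equal the annotated start minus 1, and 65 the start itself) and are printed from 1. Genes are from GENCODE M21 (GRCm38), let-7 sequences from RefSeq (GRCm38.p6). Python 3.11.15, pandas 2.3.3, numpy 2.4.6 and matplotlib 3.10.9 were used, and the scripts were tested on simulated data.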

Additional observations from a re-analysis of the deposited data

How the results depend on the processing

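No test was run, and no replicate could be left out, because the table holds 1 pooled value per group; depth and spread limit every statement here to these values. No paired analysis was possible because the group values carry no replicate numbers. Of the members, 2 higher and 2 lower by 1.5-fold became 1 and 0 at 2-fold, beside 16.9% and 6.09% of all listed features. Recentred on the median of listed features with a symbol, 1 was higher and 3 were lower, beside 16.9% and 37.2% of all listed features. Without Igfn1, as deposited, 1 was higher and 2 were lower, beside 37.4% and 16.9% of all listed features. Igf1r reversed to -0.02 when recentred. The other 11 alternative values of single members kept their direction. For the pathway genes and imprinted neighbours other than members (H19 and Nctc1 included), 8 were higher and 2 lower by 1.5-fold. The shares of all listed features are 37.4% and 16.9%. At 2-fold, 2 were higher and 2 lower, beside 16.9% and 6.09%. With no minimum fold, 22 were higher and 7 lower, beside 62.8% and 37.2%. When recentred, 2 were higher and 7 lower by 1.5-fold, beside 16.9% and 37.2%. With log2(FPKM + 1), 6 were higher and 1 was lower, counts for which no share over all listed features was computed. These changes follow from the construction of each alternative, since a larger fold, a shift or an added constant moves values across the minimum.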

Other observations

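Igfn1 lies in a stretch of chromosome 1 with other muscle genes, named here after their values were seen. Within 500 kb of its locus, 10 other features are listed, and all 10 are higher in siH19, 4 of them by at least 1.5-fold, beside 62.8% and 37.4% of all listed features. The share by 1.5-fold is thus close to that of the whole table. Among them are Tnni1 and Tnnt2, which encode subunits of troponin, the calcium switch of the thin filament, with differences of 0.56 and 0.52, and Cacna1s, the calcium channel subunit of muscle excitation, with 0.50. Pkp1, a desmosome protein gene, is higher by 1.06. Of the 10, 3 carry no gene symbol. These 3, with siCon levels of -1.77, -1.36 and -1.7 log2 FPKM, and Pkp1 are the 4 that are higher by 1.5-fold. Near Igf2bp2, the 2 listed features Vps8 and Senp2 are higher by 0.54 and 0.33, while Igf2bp2 itself has a difference of -0.43, and that of Senp2 is -0.08 when lowered by the median of 0.41.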
